A study of Homo sapiens with 6 samples.

Results

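The 9 enzymes described here catalyse steps by which the liver breaks down amino acids: HAL for histidine, TAT, HPD, HGD and FAH for tyrosine, TDO2 for tryptophan, AASS for lysine, GLDC for glycine and PRODH for proline. They were chosen by gene name from a table of 50868 genes, with no cut on measured values, and each name matched a single row. The cells were Huh7, a human hepatocellular carcinoma line of wild-type genotype per the labels, grown in serum-containing medium. They were treated for 5 days at 20 µM with P-T3H2, a peptide that the series title describes as stabilising HNF4α, or with its control peptide P-T3H2-2A, with 3 libraries in each group. RNA sequencing gave between 17434442 and 21374732 gene counts per library. The P-T3H2-2A libraries are called controls 1, 2 and 3 and the P-T3H2 libraries treated 1, 2 and 3, by their replicate numbers. P-values measure the spread between these libraries, because no label says that they came from separate cultures.

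The liver is the main site at which surplus amino acids lose their nitrogen and feed their carbon into central metabolism. HAL removes ammonia from histidine to give urocanate, which UROC1, AMDHD1 and FTCD convert further to glutamate. TAT, HPD, HGD, GSTZ1 and FAH act in turn on tyrosine to give fumarate and acetoacetate. TDO2 opens the indole ring of tryptophan at the start of the kynurenine pathway, AASS carries out the first steps of lysine breakdown, GLDC is the decarboxylase of the mitochondrial glycine cleavage system, and PRODH oxidises proline. TAT and TDO2 are classical glucocorticoid-induced genes of the liver, and loss of HGD or FAH underlies the human disorders alkaptonuria and tyrosinaemia.

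The library labelled P-T3H2-2A replicate 3 (control 3) stood apart from its group. On the first principal component, with 68.6% of the variance, it scored 27.3, against -60.3 and -58.6 for controls 1 and 2 and 23.8 to 34.3 for P-T3H2. Of 15946 genes tested with edgeR at an adjusted p under 0.05, 1 was called as labelled, or 0.00627%: LRRC8D, a volume-regulated anion channel subunit that is not among the 9 enzymes and was named after its values were seen. LRRC8D stood at 21.2, 22.1 and 21.6 CPM in controls 1, 2 and 3 and at 63.8, 65.9 and 64.5 CPM in treated 1, 2 and 3, so that here control 3 lay with its own group. Whether the label of control 3 is right was not tested, and every value as labelled and in the fit without it depends on that label. Without control 3, 7390 of 16281 were called, or 45.4%, with 22.6% higher and 22.8% lower with P-T3H2. Each result is therefore given as labelled and in this 5-library fit, and a call in the 5-library fit is to be read against that share. The 5-library fit was set apart after the values of control 3 were seen, so its p-values are descriptive and are no independent test of the peptide. For that fit, fell and rose compare the P-T3H2 libraries with controls 1 and 2 only. The hepatocyte markers ALB, APOA1, APOA2, APOB, TTR, SERPINA1, AFP and HNF4A were all detected in every library, with a summed level of 27311 to 29693 CPM, the counts scaled to library size with TMM factors. Of these 8 markers, ALB and SERPINA1 rose and HNF4A and APOB fell in the 5-library fit, and HNF4A stood at 123 CPM in both controls 1 and 2, at 76.5 CPM in control 3 and at 74.5 to 80.3 CPM in treated cells. The 12 markers of blood, endothelial, stromal and biliary cells summed to 45.9 to 47.7 CPM in the controls and 45.1 to 49.04 CPM in treated cells. CD163 was at 0 in every library and CDH5, DCN and KRT7 were at or near 0. Within this list the endothelial marker PECAM1 stood at 11.7 and 11.5 CPM in controls 1 and 2, at 2.78 CPM in control 3 and at 3.15 to 3.86 CPM in treated cells. VWF, also endothelial, went the other way, at 0.173 and 0 CPM in controls 1 and 2, 1.37 CPM in control 3 and 1.302 to 1.84 CPM in treated cells. In the 5-library fit PECAM1 fell and PDGFRB rose, and CD68, low in level, was lower in treated cells. The part of these markers in the results was not tested.

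Without control 3, HAL, FAH, AASS and GLDC were lower in the P-T3H2 libraries than in controls 1 and 2, and HGD was higher. These are 5 of the 7 enzymes tested in both fits. The falls ranged from 3.96-fold for HAL to 1.24-fold for GLDC, and HGD rose 1.64-fold. TAT and TDO2 did not pass, PRODH had no counts, and HPD, at few counts, is given by its values only. As labelled, none of the 7 enzymes tested passed in edgeR, and 3 of them (HAL, FAH and AASS) had an unadjusted p under 0.05, as did 2874 of all 15946 genes. DESeq2 called HAL lower with all 6 libraries, where it called 0.507% of genes lower. The median log2 fold change of these 7 enzymes was -0.23 as labelled and -0.31 in the 5-library fit, against -0.0039 and 0.0028 over all genes tested. In bulk RNA, fewer cells that express a gene and less of its RNA per cell cannot be told apart.

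**Figure D1:**
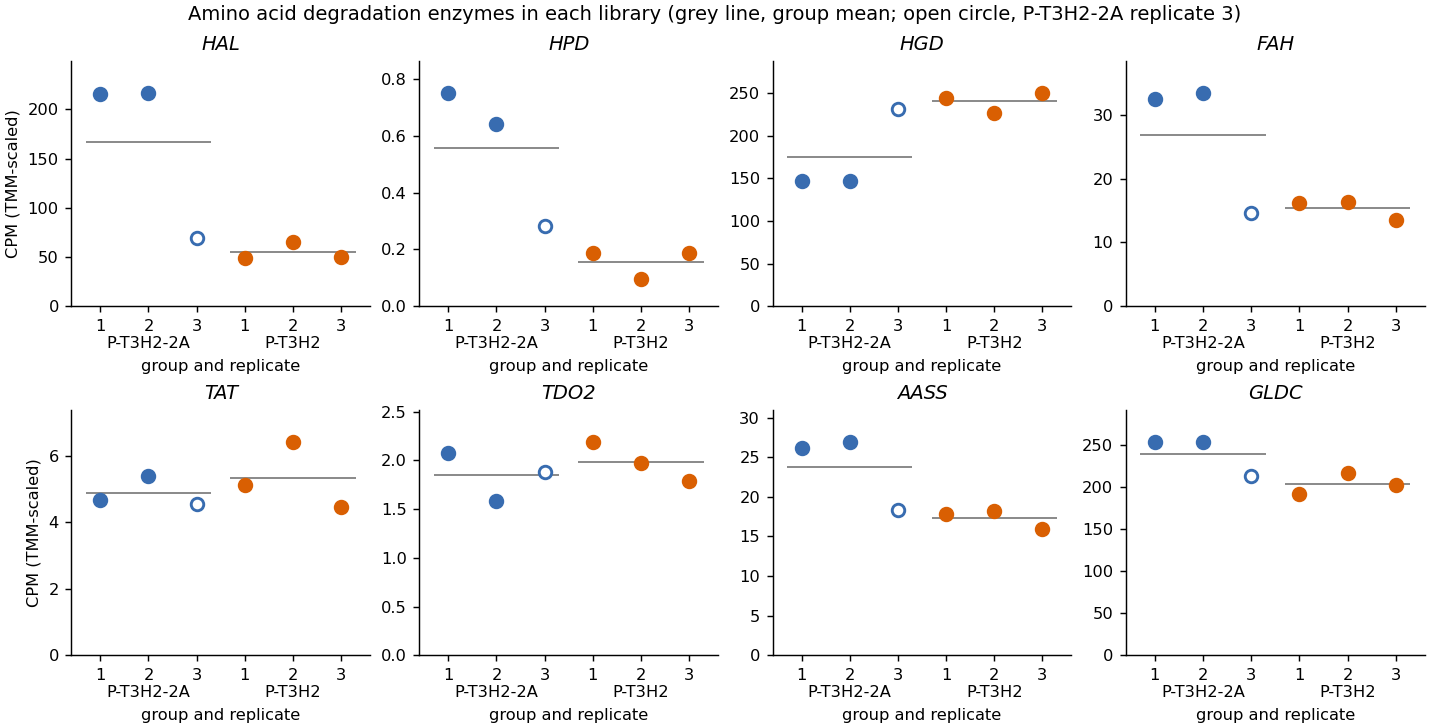
TMM-scaled CPM (vertical axis, from 0) of the 8 enzymes with counts in each of the 6 libraries (points), with the mean of each group as a grey line. Control 3 (open circle) lies within the treated values for HGD, FAH, GLDC, TAT and TDO2 and above them for HAL, HPD and AASS.

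HAL, histidine ammonia-lyase (ENSG00000084110, chromosome 12, 95972662 to 95996365, minus strand, GRCh38), stood at 215 and 216 CPM in controls 1 and 2, at 68.8 CPM in control 3, and at 48.6, 65.3 and 49.9 CPM in treated 1, 2 and 3. Every P-T3H2 library was below every P-T3H2-2A library, but control 3 lay just above treated 2 and far from the other controls. As labelled the mean was 54.6 ± 9.27 CPM in the treated cells and 167 ± 84.9 CPM in the controls (SD, n = 3 each). As labelled, edgeR gave a log2 fold change of -1.61 (standard error 0.428, adjusted p = 0.275; DESeq2, adjusted p = 0.0174). In the 5-library fit HAL fell by 1.98 log2 units (standard error 0.138, edgeR adjusted p = 0.000274).

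Groups of 3 libraries that do not overlap were found for HAL and AASS among the 7 tested enzymes, both lower with P-T3H2. Over all genes tested, 11.6% were lower in this way and 11.8% higher.

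The other 3 enzymes of the histidine route also fell in the 5-library fit. UROC1, the urocanate hydratase, stood at 11.7, 11.8 and 5.51 CPM in controls 1, 2 and 3 and at 4.98, 5.69 and 3.62 CPM in treated cells. Its log2 fold change was -1.30 without control 3 (standard error 0.187, edgeR adjusted p = 0.0014) and -1.02 as labelled (adjusted p = 0.275). AMDHD1, the imidazolonepropionase, stood at 42.1, 44.7 and 24.9 CPM in the controls and at 23.04, 23.4 and 20.0 CPM in treated cells, so that no P-T3H2 library reached a control library. AMDHD1 fell by 0.97 in the 5-library fit (edgeR adjusted p = 0.000235), against a labelled value of -0.75. FTCD, which passes the formimino group to folate, stood at 15.8, 15.2 and 8.43 CPM in the controls and at 11.7, 11.9 and 10.96 CPM in treated cells. FTCD fell by 0.43 in the 5-library fit (edgeR adjusted p = 0.00879) and had a labelled value of -0.19, and here control 3 lay below all P-T3H2 libraries. All 4 genes of the route were thus lower in the 5-library fit, by amounts that ranged from 0.43 for FTCD to 1.98 for HAL on the log2 scale, and none passed in edgeR as labelled.

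Along the tyrosine route, FAH fell and HGD rose in the 5-library fit, and TAT did not pass. HPD, 4-hydroxyphenylpyruvate dioxygenase (ENSG00000158104, chromosome 12, 121839527 to 121863596, minus strand), had 13, 13 and 6 counts in controls 1, 2 and 3 and 4, 2 and 4 counts with P-T3H2. These are 0.751, 0.643 and 0.282 CPM and 0.186, 0.0964 and 0.188 CPM. The exact (Clopper-Pearson) 95% binomial intervals, which cover counting error only, ran from 0.104 to 0.615 CPM in control 3 and from 0.0507 to 0.477 CPM in treated 1, so these 2 libraries could not be told apart at this depth. HPD was left out of the labelled test as a gene of low counts. It entered the 5-library fit only through the 2 control libraries in which it was high, so its log2 fold change there, -2.10, is a description and no call is made from it.

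HGD, homogentisate dioxygenase (ENSG00000113924, chromosome 3, 120628173 to 120682571, minus strand), was the 1 enzyme of the set that rose in the 5-library fit. It stood at 146 and 147 CPM in controls 1 and 2, at 231 CPM in control 3 and at 244, 226 and 250.02 CPM in treated cells. Controls 1 and 2 lay close together and below the other 4 libraries, among which the groups overlapped. HGD rose by 0.71 log2 units in the 5-library fit (standard error 0.057, edgeR adjusted p = 0.000131), and its labelled log2 fold change was 0.46 (standard error 0.192, adjusted p = 0.275).

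FAH, fumarylacetoacetate hydrolase (ENSG00000103876, chromosome 15, 80152490 to 80186946, plus strand), acts after HGD and had the opposite direction. It stood at 32.5 and 33.4 CPM in controls 1 and 2, at 14.5 CPM in control 3 and at 16.2, 16.4 and 13.5 CPM in treated cells. FAH fell by 1.10 log2 units in the 5-library fit (standard error 0.104, edgeR adjusted p = 0.000238), and its labelled value was -0.80 (standard error 0.314, adjusted p = 0.275). In FPKM, which divides by gene length, the ratio of the HGD level to the FAH level was 10.7 and 10.5 in controls 1 and 2, 37.7 in control 3 and 35.8, 32.7 and 44.0 in the treated libraries. The ratio was thus lower in the first 2 control libraries than in the other 4. GSTZ1, which acts between HGD and FAH, fell by 0.48 log2 units in the 5-library fit (edgeR adjusted p = 0.017), from 12.6 and 11.8 CPM in controls 1 and 2 to 8.93, 9.5 and 7.76 CPM in treated cells, and stood at 9.04 CPM in control 3. Its labelled log2 fold change was -0.35.

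TAT, tyrosine aminotransferase (ENSG00000198650, chromosome 16, 71565660 to 71577130, minus strand), was low in every library. It stood at 4.68, 5.39 and 4.57 CPM in controls 1, 2 and 3 and at 5.12, 6.41 and 4.47 CPM in treated cells. The groups overlapped, and the log2 fold change was 0.13 as labelled (95% interval -0.31 to 0.57, edgeR adjusted p = 0.67) and 0.08 in the 5-library fit (95% interval -0.37 to 0.53, adjusted p = 0.763). The sign of the labelled value turned to -0.02 without treated 2. TAT-AS1, annotated on the opposite strand of the same locus, had 4 to 7 counts per library against 81 to 133 for TAT, and the strand setting of the counting is not given in the sources used here.

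QDPR and PCBD1, which regenerate the cofactor tetrahydrobiopterin, fell by 0.61 and 0.55 log2 units in the 5-library fit (edgeR adjusted p = 0.00047 and 0.000297), and their labelled values were -0.48 and -0.39. With GSTZ1, 3 other genes of the phenylalanine and tyrosine list fell in that fit and none rose.

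**Figure D2:**
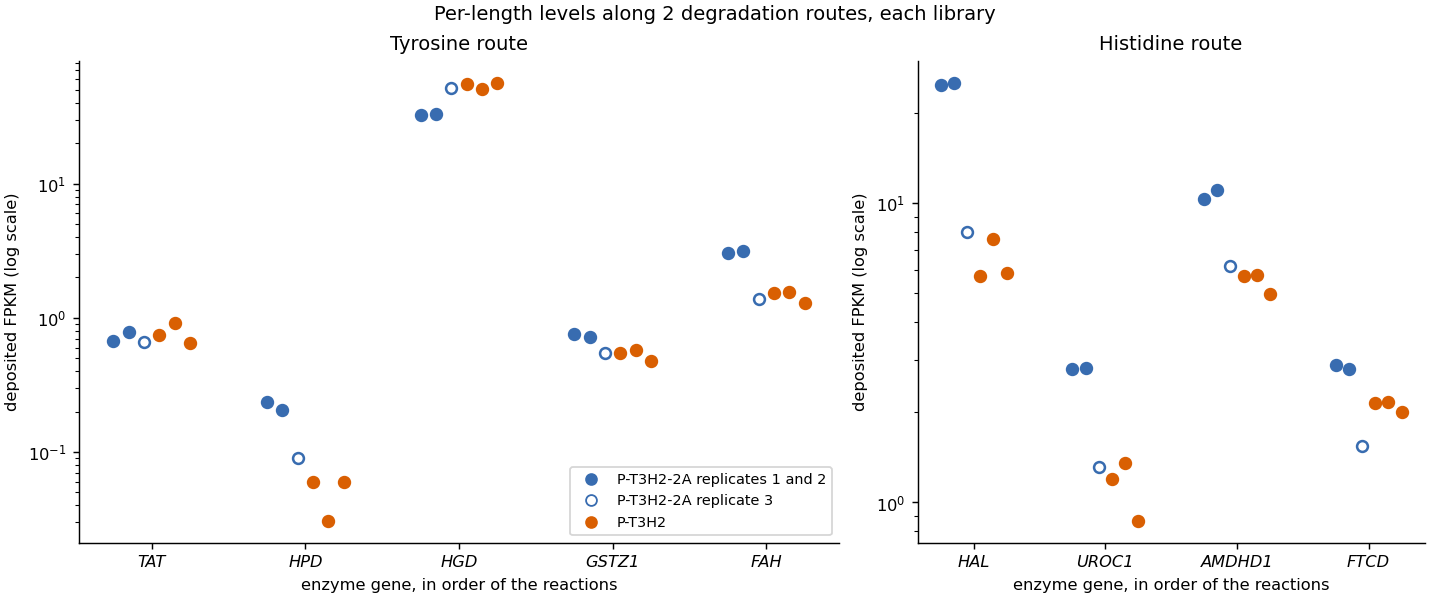
Deposited FPKM (log axis) of the enzymes of the tyrosine route (left) and the histidine route (right), in order of the reactions, with 1 point per library. HGD lies at 32.7 FPKM or more in every library while TAT and HPD lie at 0.922 FPKM or less, and all 4 histidine enzymes are lower with P-T3H2 than in controls 1 and 2.

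Per gene length, the set spanned a wide range of levels. GLDC stood at 33.3 to 43.6 FPKM, HGD at 32.7 to 56.3 FPKM and HAL at 5.69 to 25.2 FPKM over the 6 libraries. AASS (2.05 to 3.46 FPKM) and FAH (1.28 to 3.16 FPKM) followed, and their ranges overlapped. TAT stood at 0.645 to 0.922 FPKM, TDO2 at 0.235 to 0.327 FPKM and HPD at 0.0306 to 0.237 FPKM, and the top of the HPD range just reached the bottom of that of TDO2. PRODH was at 0. The order of GLDC and HGD depends on the library and on the gene length used. With the deposited FPKM the GLDC level over the HGD level was 1.33 and 1.32 in controls 1 and 2, 0.706 in control 3 and 0.603, 0.735 and 0.621 in the treated libraries. The length behind the deposited FPKM was 5797 bases for GLDC and 4449 for HGD, against 8939 and 2983 bases of merged exons in GENCODE release 29. With the latter lengths GLDC stood at 21.6 to 28.3 and HGD at 48.7 to 84.0 counts per kilobase. These values were scaled by library total as in FPKM, without TMM factors, and HGD was above GLDC in every library. The HGD level over the FAH level had a median of 34.3 with the deposited FPKM and 34.9 with the merged exons.

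TDO2, tryptophan dioxygenase (ENSG00000151790, chromosome 4, 155854738 to 155920406, plus strand), had 32 to 47 counts per library. It stood at 2.08, 1.58 and 1.88 CPM in controls 1, 2 and 3 and at 2.19, 1.98 and 1.79 CPM in treated cells. The groups overlapped and the log2 fold change was 0.10 as labelled (95% interval -0.37 to 0.58, edgeR adjusted p = 0.753) and 0.12 in the 5-library fit (95% interval -0.41 to 0.65, adjusted p = 0.688). At this depth the intervals leave room for changes of either sign up to their bounds.

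Of the 10 other tryptophan and kynurenine genes, 7 were tested. In the 5-library fit 2 rose and 4 fell. QPRT, which leads quinolinate into NAD synthesis, rose by 0.59 on the log2 scale (edgeR adjusted p = 0.000251), from 228 and 209.7 CPM in controls 1 and 2 to 339, 325 and 324 CPM in treated cells. It stood at 301 CPM in control 3, below all P-T3H2 libraries. AFMID, the formamidase of the pathway, rose by 0.24, and ACMSD and the kynureninase KYNU fell by 0.63 and 0.47 (edgeR adjusted p = 0.0234, 0.0333 and 0.0336). Their labelled values were 0.42 for QPRT, 0.17 for AFMID, -0.33 for ACMSD and -0.22 for KYNU. IDO1 and IDO2, which carry out the same reaction as TDO2, had no counts in any library.

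AASS, the bifunctional aminoadipate semialdehyde synthase (ENSG00000008311, chromosome 7, 122075647 to 122144280, minus strand), stood at 26.2, 26.9 and 18.3 CPM in controls 1, 2 and 3 and at 17.8, 18.3 and 16.0 CPM in treated cells. The groups did not overlap, although control 3 and treated 2 were nearly equal. AASS fell by 0.61 log2 units in the 5-library fit (standard error 0.090, edgeR adjusted p = 0.00155), and its labelled value was -0.45 (standard error 0.168, adjusted p = 0.275). Of the 5 other lysine genes, 4 fell in the 5-library fit and 1, DHTKD1, did not pass. PIPOX, the pipecolate oxidase, fell by 1.41 and AADAT, which transaminates aminoadipate, fell by 0.68 (edgeR adjusted p = 0.000983 and 0.00318), against labelled values of -1.01 and -0.49.

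GLDC, glycine decarboxylase (ENSG00000178445, chromosome 9, 6532464 to 6645650, minus strand), had the smallest change of those that passed in the 5-library fit. It stood at 253 CPM in controls 1 and 2, at 213 CPM in control 3 and at 192, 216 and 202 CPM in treated cells. GLDC fell by 0.31 log2 units there (standard error 0.0604, edgeR adjusted p = 0.00509), and its labelled value was -0.23 (standard error 0.102, adjusted p = 0.275). GLDCP1, a pseudogene of GLDC on chromosome 4, had 293 to 358 counts per library against 4124 to 5110 for GLDC, so how reads were divided between the copies could move the GLDC values slightly. GCSH, the carrier protein of the glycine cleavage system, and DMGDH, dimethylglycine dehydrogenase, fell by 0.63 and 0.81 in the 5-library fit (edgeR adjusted p = 0.00283 and 0.00418). AGXT, the peroxisomal alanine and glyoxylate aminotransferase, rose by 0.50 (adjusted p = 0.00117). Their labelled values were -0.45, -0.65 and 0.37, and AGXT was higher in every P-T3H2 library than in every P-T3H2-2A library. Of 8 other glycine, serine and threonine genes tested in that fit, 6 fell and 1 rose.

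PRODH, proline dehydrogenase (ENSG00000100033, chromosome 22, 18912777 to 18936553, minus strand), had 0 counts in all 6 libraries. A count of 0 allows up to 3 counts per library, or 0.173 CPM in the shallowest library, and up to 0.0245 CPM over the 122223237 counts of all libraries together. Other genes of the proline list were expressed. ALDH18A1, which makes the proline precursor pyrroline carboxylate from glutamate, stood at 221 and 232 CPM in controls 1 and 2, at 756 CPM in control 3 and at 825, 748 and 813 CPM in treated cells. ALDH18A1 rose 3.51-fold in the 5-library fit (log2 fold change 1.81, standard error 0.0594, edgeR adjusted p = 1.1e-05) and had a labelled log2 fold change of 0.98 (adjusted p = 0.285). In that fit 1 of the 8 other genes of the list rose, 2 fell and 5 did not pass.

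**Figure D3:**
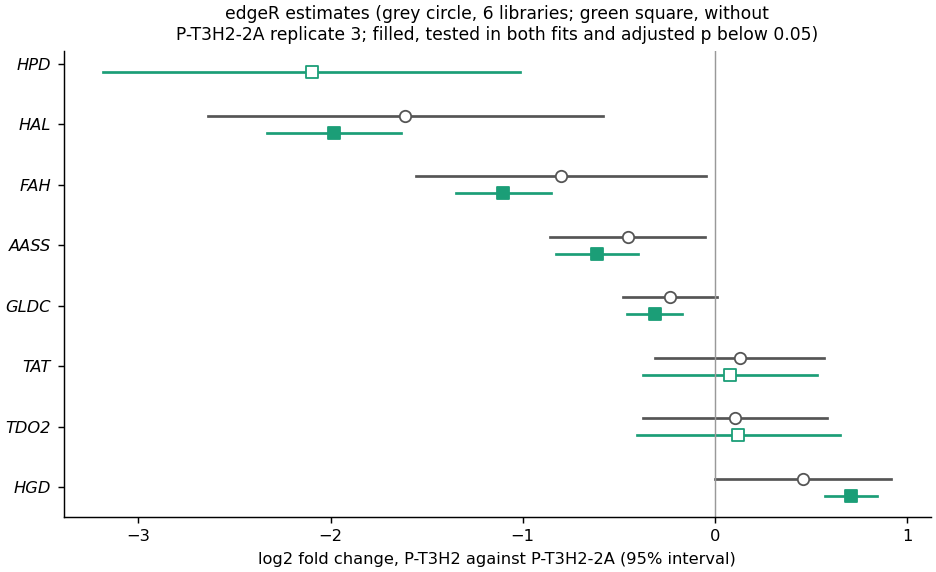
Log2 fold change of P-T3H2 against P-T3H2-2A (horizontal axis) with its 95% interval for 7 enzymes with all 6 libraries (grey circles) and for 8, HPD included, without control 3 (green squares). Filled symbols have an adjusted p under 0.05 in a gene tested in both fits: none with 6 libraries and 5 without control 3.

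The wider set of amino acid degradation genes comprised 76 genes in 9 lists that leave out the enzymes above. Without control 3, 37 of the 70 tested fell, 12 rose and 21 did not pass, with a median log2 fold change of -0.25 against 0.0028 over all genes and with 22.8% of all genes lower and 22.6% higher. As labelled, none of 69 passed in edgeR or DESeq2, 18 had an unadjusted p under 0.05 in edgeR, and the median was -0.16. Groups that did not overlap were higher for 7 and lower for 10 of these 69, against 11.8% higher and 11.6% lower of all genes tested.

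The lists are given in turn, and differences between them were not tested. The count of each list is to be read against 22.8% of all genes lower and 22.6% higher in the 5-library fit. Among 20 branched-chain amino acid genes, 10 fell and 1 rose in the 5-library fit. The transaminase BCAT2 fell by 0.56 and the isovaleryl dehydrogenase IVD fell by 0.54 on the log2 scale (edgeR adjusted p = 0.00299 and 0.00104). PPM1K, the phosphatase that activates the branched-chain ketoacid dehydrogenase, rose by 1.49 (adjusted p = 5.41e-05), from 24.8 and 24.2 CPM in controls 1 and 2 to 69.0, 62.2 and 75.2 CPM in treated cells, with 70.0 CPM in control 3. The labelled values of BCAT2, IVD and PPM1K were -0.35, -0.39 and 0.79.

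Among 8 tested genes of glutamate, alanine and aspartate metabolism, 4 rose and 2 fell in the 5-library fit. GLS2, the liver-type glutaminase, rose by 0.77 on the log2 scale at a level of 1.33 to 2.51 CPM, while GOT2 and GLUD1, of mitochondrial transamination and glutamate oxidation, fell by 0.24 and 0.21 (edgeR adjusted p = 0.0224, 0.0099 and 0.00795). The labelled values were 0.67, -0.15 and -0.13. Among 7 sulfur amino acid genes, 3 rose and 3 fell: CTH and TST rose by 0.63 and 0.56, and ETHE1 and the cysteine dioxygenase CDO1 fell by 0.74 and 0.69 (edgeR adjusted p = 0.00401, 0.0031, 0.00344 and 0.00569). The labelled values were 0.24, 0.31, -0.63 and -0.54.

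**Figure D4:**
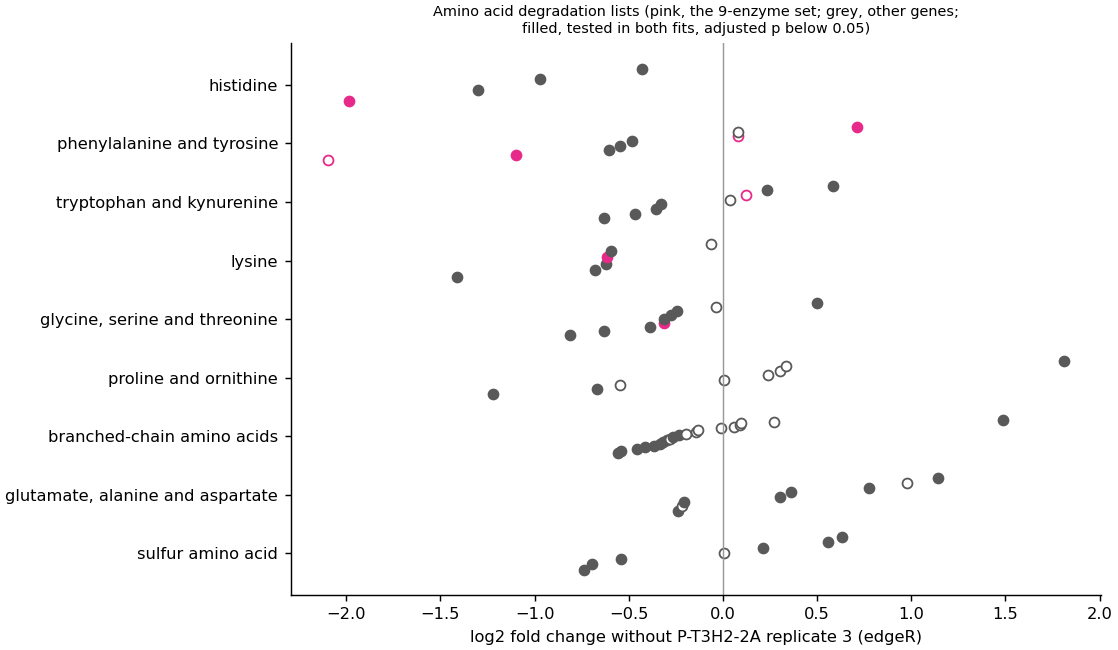
Log2 fold change without control 3 (horizontal axis) of each tested gene in 9 amino acid lists, with the enzymes of the set in pink, other genes in grey and genes of adjusted p under 0.05 filled if tested in both fits. All 4 histidine genes lie left of 0, and ALDH18A1 in the proline list, at 1.81, lies farthest to the right.

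Because TAT and TDO2 are known glucocorticoid targets, 7 genes of the glucocorticoid response were read alongside them. NR3C1, the receptor gene, did not pass in either fit and had a log2 fold change of -0.15 as labelled and -0.16 in the 5-library fit (edgeR adjusted p = 0.158). Of the 7, 4 rose and 2 fell in the 5-library fit. TSC22D3, which encodes the glucocorticoid-induced leucine zipper, stood at 9.99 and 11.2 CPM in controls 1 and 2, at 142 CPM in control 3 and at 114, 134 and 163 CPM in treated cells, and rose by 3.68 on the log2 scale (edgeR adjusted p = 0.000152). The clock gene PER1 rose by 0.62, and FKBP5 and ZBTB16 fell by 0.94 and 0.81 (adjusted p = 0.00227, 0.0329 and 0.0127). As labelled, TSC22D3, PER1, FKBP5 and ZBTB16 had values of 1.33, 0.43, -0.73 and -0.58 and none passed.

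Promoter sequence of the 250 bases before the transcription start is shown for the 4 enzymes that fell in the 5-library fit among those tested in both fits, and for TDO2, which did not pass. The sequences are from RefSeq (GRCh38.p14), 5′ to 3′ on the strand of the gene. Capitals mark matches, on either strand, to any of 5 motifs. These are TGTTCT for the glucocorticoid receptor, TTGCNNAA for the bZIP factors of the CEBP family, CAAAGT for the nuclear receptor HNF4, GTTAAT for the homeodomain factor HNF1 and TATAAA for the core promoter element of that name. The positions are chr12:95996345-95996594 (minus) for HAL, chr7:122144250-122144499 (minus) for AASS, chr15:80152749-80152998 (plus) for FAH, chr9:6645730-6645979 (minus) for GLDC and chr4:155903446-155903695 (plus) for TDO2.
HAL: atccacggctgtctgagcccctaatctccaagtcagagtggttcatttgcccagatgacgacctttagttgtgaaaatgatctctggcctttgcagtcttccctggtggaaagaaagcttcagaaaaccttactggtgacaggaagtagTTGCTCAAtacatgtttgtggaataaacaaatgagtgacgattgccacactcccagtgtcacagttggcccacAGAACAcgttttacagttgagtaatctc
AASS: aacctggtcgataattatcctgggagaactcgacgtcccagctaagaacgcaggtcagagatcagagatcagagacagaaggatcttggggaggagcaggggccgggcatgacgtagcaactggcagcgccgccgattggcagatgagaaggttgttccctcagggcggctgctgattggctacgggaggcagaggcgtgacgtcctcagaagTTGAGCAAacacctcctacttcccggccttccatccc
FAH: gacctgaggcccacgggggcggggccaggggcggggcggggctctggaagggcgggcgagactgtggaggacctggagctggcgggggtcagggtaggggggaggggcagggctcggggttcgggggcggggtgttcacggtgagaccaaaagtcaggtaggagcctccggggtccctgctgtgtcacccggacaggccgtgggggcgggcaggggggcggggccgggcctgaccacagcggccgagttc
GLDC: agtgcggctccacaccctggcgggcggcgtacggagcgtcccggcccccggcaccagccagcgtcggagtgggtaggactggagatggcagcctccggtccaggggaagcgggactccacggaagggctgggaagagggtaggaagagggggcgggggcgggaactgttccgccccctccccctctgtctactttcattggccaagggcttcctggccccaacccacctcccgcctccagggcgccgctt
TDO2: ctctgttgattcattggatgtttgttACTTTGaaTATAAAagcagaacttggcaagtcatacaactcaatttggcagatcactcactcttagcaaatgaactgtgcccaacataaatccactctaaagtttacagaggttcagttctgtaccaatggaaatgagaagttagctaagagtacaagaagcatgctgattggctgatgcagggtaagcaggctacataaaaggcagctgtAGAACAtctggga

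The HAL window held TGTTCT, read on the other strand, from base 28 to base 23 before the start and TTGCNNAA from base 101 to base 94. The AASS window held TTGCNNAA on the other strand from base 37 to base 30, and the FAH and GLDC windows held none of the 5 motifs. Of the windows of both HPD starts in the table, not shown, 1 held TGTTCT on the other strand from base 128 to base 123 and the other held none. The window with the match, chr12:121888612-121888861, lies outside the annotated span of HPD. The bases just after either HPD start were not found in a GENCODE release 29 transcript of HPD. The TDO2 window held TGTTCT on the other strand from base 13 to base 8, CAAAGT on the other strand from base 224 to base 219 and TATAAA from base 216 to base 211. The FAH gene has a pair of RefSeq starts, of which the downstream is shown. The FAH window shown and the TDO2 window each lie inside the annotated span of their gene. TAT, HGD and PRODH were not in the promoter table. Over 35116 RefSeq windows of this length, TGTTCT was found in 12.4%, TTGCNNAA in 9.05%, CAAAGT in 10.3%, GTTAAT in 6.23% and TATAAA in 10.7%. The GC content was 45.6% for HAL and 40% for TDO2, against 58.0% for AASS, 75.6% for FAH, 70.8% for GLDC, 68.8% and 64.8% for the HPD windows and a median of 58.0% over all windows.

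Genes with the most similar profile were found by the root mean square difference of log2 CPM, centred over the 6 libraries, among genes of at least 5 CPM. For HAL they were SLC16A9 and DNMT3B, at 0.0604 and 0.0799, against a median of 0.917 over 11392 genes. SLC16A9 stood at 20.7, 22.5 and 6.83 CPM in the controls and at 4.33, 6.22 and 4.85 CPM in treated cells. For GLDC they were WDR36 and PLBD1, at 0.0051 and 0.0107, against a median of 0.22. For TAT they were BTF3L4 and ARNT (0.0538 and 0.0634, median 0.26), and for TDO2 ZNF225 and LAMTOR3 (0.0499 and 0.0511, median 0.243). All of these values rest on 6 libraries and share their depth and scaling. The nearest genes among so many lie below the median by construction, so that comparison is no test of similarity. For TAT and for TDO2 the 95% binomial intervals of all 6 libraries overlapped, so their profiles were not resolved from counting error and their nearest genes show little.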

How the data were processed

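Gene expression was measured in 6 libraries, grouped by their titles into P-T3H2 and P-T3H2-2A; the series design mentions 3 groups, and 2 are labelled. The authors deposited whole-number counts and FPKM per gene and library, per the file headers. The submitters' processing notes name HISAT2 2.0.4, StringTie 1.3.3b and edgeR, without roles, and a mouse build, whereas the table lists human Ensembl genes. GENCODE release 29 (GRCh38) holds 50111 of the 50868 gene IDs, 47499 at identical coordinates (of the 9 enzymes, all but GLDC). The labels' protocols name the VAHTS Universal V6 and SMARTER library kits without saying which library used which. Counts and deposited FPKM imply the same gene length in every library (tolerance 0.001).

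Counts were tested with edgeR 4.0.16 in R 4.3.3 (TMM, filterByExpr with a minimum count of 10 and total of 15, robust quasi-likelihood, group as the only term), with p adjusted by Benjamini-Hochberg over all genes tested. The procedure was first checked on simulated data. CPM is scaled by library total and TMM factor, and a standard error is the log2 fold change divided by the root of F. Binomial intervals and floors of 3 counts cover counting error only. Intervals of log2 fold changes come from the edgeR standard error, which includes the spread between libraries. Alternatives were DESeq2 1.42.0, limma 3.58.1 (voom; trend on log2 FPKM with 1 or 0.1 added), other scalings and filters, a replicate block, and leaving out each library. GENCODE lengths were added after the data were seen.

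The enzymes and lists were chosen with earlier results of these data known. Named from each list were up to 2 genes in each direction with the largest change among those past the threshold at a mean of at least 1 CPM without P-T3H2-2A replicate 3. FTCD, GSTZ1, DHTKD1, NR3C1, PECAM1, TAT-AS1, GLDCP1, IDO1 and IDO2 were named outside that rule. Some genes that the rule would name are not reported here.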

Additional observations from a re-analysis of the deposited data

How the results depend on the processing

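With all 6 libraries, the count of genes called, 1 in edgeR, was 117 in DESeq2, 3 in limma-voom, 4 with no filter beyond 1 count and 2 with limma-trend on log2(FPKM + 1), and it ran from 0 to 7390 over the left-out libraries. The enzymes called were 0 in edgeR, 1 in DESeq2 and 0 to 6 over the left-out libraries, and the other amino acid degradation genes called were 0 and 0 to 49. The upper ends came without control 3; leaving out any other library called no enzyme. With that library left out, DESeq2, limma-voom and library totals without TMM called 6639, 7305 and 7381 genes, each called 6 enzymes (here and above, the 6 include HPD, which passed the filter only through the controls where it was high), and they called 41, 48 and 48 of the other genes. HAL, FAH, HGD, AASS and GLDC kept their direction in each of 18 alternatives. TAT and TDO2, which passed in none, ranged over the left-out libraries from -0.023 to 0.241 and from -0.0010 to 0.192 on the log2 scale. With a replicate block edgeR called 0 genes and no enzyme. Whether the numbers pair the libraries could not be decided. Deviations of same-numbered libraries from their group means correlated at -0.051, 0.163 and 0.112 for replicates 1, 2 and 3. The best correlations with a library of another number were 0.090, 0.132 and -0.084. The deviations of the controls carry the shift of control 3, so these values do not settle the pairing. Low counts limit HPD, TDO2 and PRODH.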

Other observations

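Some genes of the lists varied widely among the libraries of a group, in ways other than the place of control 3; these were chosen after their values were seen. ALDH4A1, the enzyme that acts after PRODH, stood at 122 CPM in treated 1 but at 226 and 219 CPM in treated 2 and 3, with 146, 154 and 128 CPM in controls 1, 2 and 3. The alanine aminotransferase GPT2 stood at 85.7, 43.5 and 96.2 CPM in the controls and at 101, 179.8 and 99.8 CPM in treated cells. Every treated library was above every control for GPT2, although treated 1 and 3 lay close to control 3. Of all genes tested, 11.8% were higher in this way. HIBADH stood at 80.2 CPM in control 1 and between 49.2 and 55.6 CPM in the other 5 libraries. None of these 3 passed in edgeR in either fit.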
